A study of Homo sapiens with 12 samples.

Results

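YAP1 and WWTR1, which encodes TAZ, and 8 genes known as classic targets of these coactivators were examined in Ewing sarcoma cells with conditional knockout of RRM1. The members were chosen by name, as the rows of the raw count table called YAP1, WWTR1, CCN1, CCN2, ANKRD1, AMOTL1, AMOTL2, LATS2, AJUBA and AXL. Of these 10 genes, 9 had a row among the 20771 genes of the table. The table used here holds no row named ANKRD1, so that RNA of this cardiac ankyrin repeat protein gene was not analysed here. Its promoter window is counted among the sequences described below. RNA was sequenced from EW8 and TC71, both Ewing sarcoma cell lines, in 12 libraries, with 3 replicates per line and label, the labels being 0 h and 48 h. The study's methods describe cells that carry Cas9 with a guide RNA against RRM1, a hygromycin resistance gene and a doxycycline-inducible, codon-optimized RRM1 transgene, and these were shared by all 4 groups. Per those methods, 0 h stands for growth with doxycycline and 48 h for 48 hours after its removal, which depletes RRM1, a subunit of ribonucleotide reductase. The knockout lines had been single cell cloned, so that a difference between EW8 and TC71 cannot be told apart from a difference between clones. The labels do not say whether replicates were separate cultures, and p-values measure the spread between these libraries, which may be technical.

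YAP1 and TAZ are transcriptional coactivators without a DNA-binding domain of their own. When the kinases of the Hippo pathway are active, LATS1 and LATS2 phosphorylate both proteins, which are then held in the cytoplasm or degraded. When these kinases are inactive, as in spread or sparsely plated cells, YAP1 and TAZ enter the nucleus and bind the TEAD transcription factors, which recognize the letters GGAATG. AP-1 factors often occupy the same enhancers as TEAD. Several targets feed back on the pathway, since LATS2, AMOTL1 and AMOTL2 restrain YAP1 and TAZ.

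Upstream sequences of 2 members that rose and of YAP1 are shown because they carry the TEAD letters. They are the 250 bases before a transcription start in RefSeq (GRCh38.p14), written 5′ to 3′ on the strand of the gene, with GGAATG or its reverse complement CATTCC in capitals. CCN2 lies on the − strand at chr6:131951373-131951622, the second start of AMOTL2 on the − strand at chr3:134374448-134374697, and YAP1 on the + strand at chr11:102110197-102110446.
CCN2: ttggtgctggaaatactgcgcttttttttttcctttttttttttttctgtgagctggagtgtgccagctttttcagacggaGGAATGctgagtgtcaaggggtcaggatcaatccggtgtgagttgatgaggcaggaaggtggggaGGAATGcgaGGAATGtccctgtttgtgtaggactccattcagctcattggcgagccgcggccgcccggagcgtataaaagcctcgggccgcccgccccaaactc
AMOTL2: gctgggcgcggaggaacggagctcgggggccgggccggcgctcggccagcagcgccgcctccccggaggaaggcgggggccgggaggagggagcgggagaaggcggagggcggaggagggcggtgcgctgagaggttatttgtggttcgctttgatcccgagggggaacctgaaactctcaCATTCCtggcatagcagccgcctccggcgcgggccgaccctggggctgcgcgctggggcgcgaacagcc
YAP1: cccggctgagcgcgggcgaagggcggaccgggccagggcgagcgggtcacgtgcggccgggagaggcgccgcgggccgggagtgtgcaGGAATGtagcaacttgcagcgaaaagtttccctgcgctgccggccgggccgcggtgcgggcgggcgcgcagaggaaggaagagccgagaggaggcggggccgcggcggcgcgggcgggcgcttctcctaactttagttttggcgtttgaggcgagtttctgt

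The CCN2 sequence holds GGAATG 3 times, beginning 169, 104 and 95 bases before the start. AMOTL2 holds the letters once on the opposite strand, with the first base 69 bases before its second start, and YAP1 holds them once, 162 bases before its start. RefSeq windows of 300 bases, with 250 before and 50 after a start, were at hand for 9 members (13 windows, since AJUBA, AMOTL2, AXL and WWTR1 each have 2 starts), and CCN1 was not among them. The TEAD letters were found on either strand in 7 of the 13 windows, or 53.8%, against 14.0% of the 35114 windows of all genes. Of these 7 windows, 1 each belonged to AJUBA, AMOTL2, ANKRD1, AXL, CCN2, LATS2 and YAP1. As most members were chosen as known targets of YAP1 and TAZ, the share of 53.8% is a description and not a test. The AP-1 letters TGANTCA, which read the same on both strands, were found in the ANKRD1 window alone among the 13, or 7.69%, against 7.71% of all windows. No member window held a CArG box, the element that SRF binds, against 1.29% of all windows. None of the TEAD letters overlapped the AP-1 letters. A match describes the letters in a window and does not show that a factor was bound there.

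**Figure D1:**
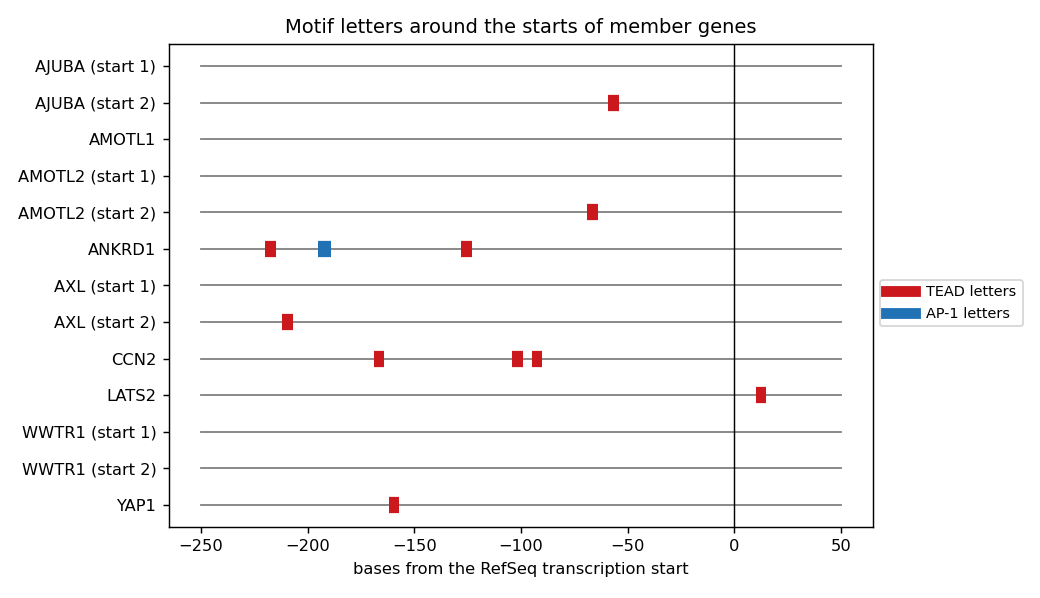
Positions of the TEAD letters (red) and the AP-1 letters (blue) in 13 windows from 250 bases before to 50 bases after the RefSeq starts of 9 member genes; the x axis gives bases from the start. CCN2 holds 3 TEAD matches and both WWTR1 windows hold no match.

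Counts per library summed to between 18468485 and 35698991, and 16515 genes passed the filter on low counts, with all 9 members in the table among them. AXL passed through its TC71 libraries. RRM1, the targeted gene, had 214, 166 and 317 counts in EW8 at 0 h against 1201, 1449 and 1514 at 48 h. The TC71 libraries held 422, 316 and 418 counts at 0 h against 674, 707 and 778 at 48 h. RRM1 was thus higher in the libraries labelled 48 h, by 2.88 on the log2 scale in EW8 (adjusted p = 3.37e-27), with 0.65 for TC71 (adjusted p = 2.91e-09). This row therefore does not show the loss that the 48 h label stands for. Whether reads of the codon-optimized transgene counted toward it was not tested, RRM1 protein was not analysed here, and in every direction given here 0 h and 48 h stand for the libraries so labelled. Replicate 3 of TC71 at 48 h stood apart, as its counts differed from those of replicates 1 and 2 by a chi-square per gene of 7.90 and 9.57, against 2.06 to 5.15 for the other replicate pairs. Without it, CCN1 (log2 fold 1.49) and CCN2 (1.70) were still the members called higher in TC71, AMOTL2 had 0.94 and AJUBA -0.31 (adjusted p = 0.0149 in edgeR), and the genes called lower in TC71 numbered 109 instead of 141. All 10 Ewing sarcoma markers were detected, among them CD99 and NKX2-2, and their summed level ran from 3281 to 3346 CPM (counts scaled to the TMM-adjusted library size) in EW8 at 0 h, 3282 to 3299 in EW8 at 48 h, 2927 to 2957 in TC71 at 0 h and 2973 to 3032 in TC71 at 48 h. CCND1 alone made up 1390 to 1500 CPM of the EW8 sum as a group mean, and single markers moved beneath it. On the adjusted p alone, 5 rose and 5 fell in EW8, where 37.0% and 31.6% of all genes did, with 5 and 4 in TC71, against 22.9% and 19.2%. BCL11B was called lower in EW8 at -1.11 on the log2 scale (adjusted p = 7.48e-19), while CD99 had -0.45 and NKX2-2 0.58. Of 10 fibroblast or mesenchymal markers, 8 were in the table and COL1A2 and POSTN were not. Their summed level was 186 to 189 CPM at 0 h and 284 to 290 CPM at 48 h in EW8, and 182 to 186 CPM and 259 to 277 CPM in TC71. Of 8 epithelial markers, 4 were in the table, with 7.01 to 9.45 CPM at 0 h and 21.6 to 23.3 CPM at 48 h in EW8, and 71.5 to 73.7 CPM and 99.0 to 112 CPM in TC71. KRT18 made up most of this sum, with group means of 7.53 and 18.9 CPM in EW8 and 65.4 and 94.9 CPM in TC71. EPCAM and CLDN4 had group means of at most 1.46 and 0.475 CPM. On the adjusted p alone, 2 of the 4 rose in EW8 and 3 in TC71, against 37.0% and 22.9% of all genes, and 0 fell. Of the 5 endothelial and 5 leukocyte markers, 1 each was in the table (CDH5 and PTPRC), and neither exceeded 0.219 CPM in any library. The mesenchymal and epithelial sums moved with the member genes described below, and their part in those results was not tested. In such bulk samples, fewer cells of a type and less RNA per cell cannot be told apart.

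The secreted targets CCN1 and CCN2 were higher in the libraries labelled 48 h than in those labelled 0 h in both lines, and AMOTL2 was higher by more than 2-fold in EW8. Genes were called where the adjusted p lay below 0.05 and the change exceeded 2-fold in the quasi-likelihood test of edgeR. In EW8, 3 of the 9 members were called higher, against 13.9% of all genes tested, and 0 were called lower, against 3.35%. In TC71, 2 members were called higher, against 3.26% of all genes, and 0 were called lower, against 0.854%. On the adjusted p alone, EW8 had 7 members that rose and 1 that fell, against 37.0% and 31.6% of all genes, whereas TC71 had 6 and 1, against 22.9% and 19.2%. The same 8 genes in EW8 and 7 in TC71 had groups whose libraries did not overlap, as did 37.9% (higher) and 33.2% (lower) of all genes in EW8 and 25.9% and 23.7% in TC71. Without AXL, whose EW8 counts are too low for a fold, the median log2 response of the 8 members was 0.80 in EW8 and 0.47 in TC71, beside 0.03 and 0.00 for all genes tested.

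**Figure D2:**
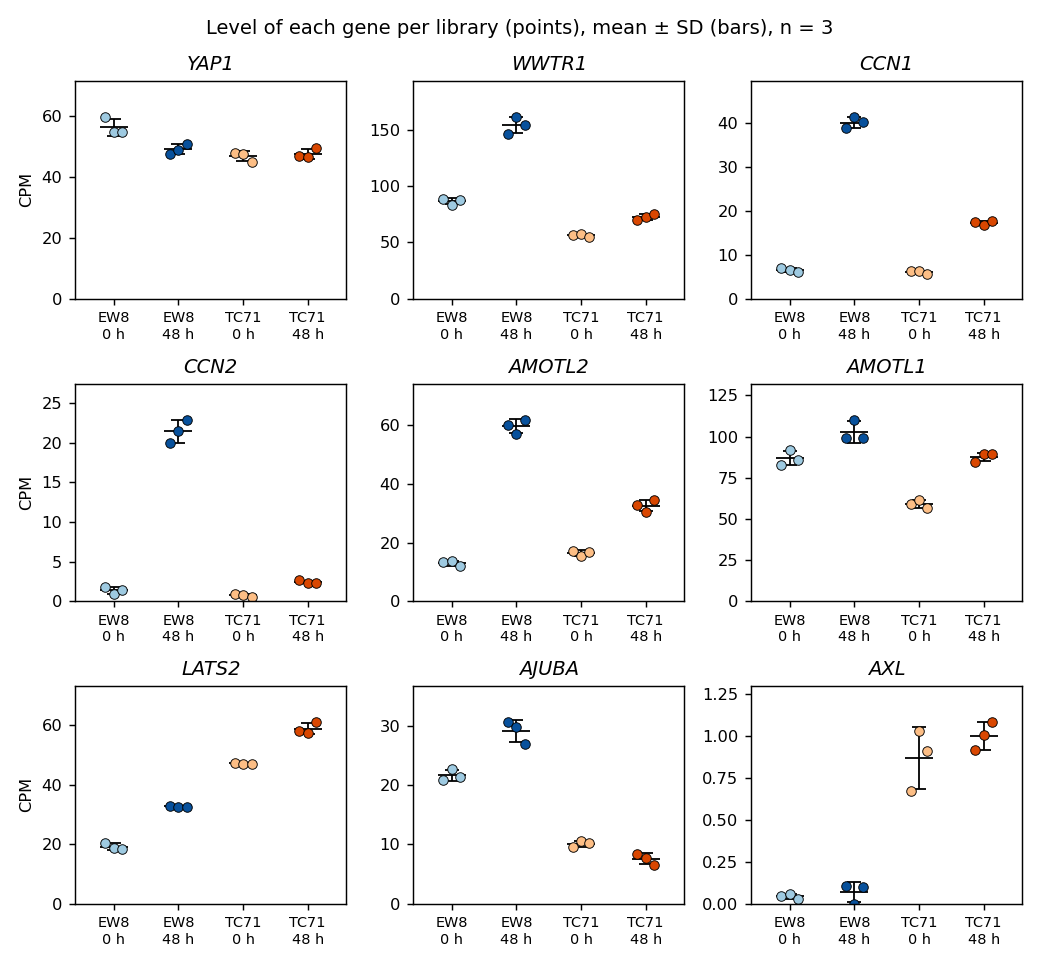
Level of each member gene in CPM (y axis, from 0, on a separate scale for each gene) in the 12 libraries, grouped by line and time; points are libraries, and bars give the mean ± SD (n = 3). CCN1, CCN2 and AMOTL2 rose in both lines, with the highest levels in EW8 at 48 h, whereas YAP1 stayed between 45.1 and 59.6 CPM in all libraries.

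Among the effectors, YAP1 (ENSG00000137693, chromosome 11, 102110447 to 102233424) had 1361, 955 and 1797 counts in EW8 at 0 h against 895, 978 and 1039 at 48 h. The TC71 libraries held 1288, 971 and 1089 counts at 0 h against 1225, 1247 and 1600 at 48 h. Scaled to library size, the EW8 libraries at 48 h lay slightly below those at 0 h, and the TC71 groups overlapped. The level was 56.4 ± 2.80 and 49.2 ± 1.64 CPM in EW8 (SD, n = 3 libraries each) and 46.9 ± 1.59 and 47.6 ± 1.65 CPM in TC71. The log2 fold was -0.20 ± 0.05 in EW8 (SE, adjusted p = 0.00152), but -0.07 with an adjusted p of 0.221 when libraries were scaled to total counts alone, a scaling that raised the median of all genes in EW8 by 0.13. In TC71 the log2 fold change was 0.02 (95% confidence interval -0.08 to 0.13, adjusted p = 0.760).

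WWTR1 (ENSG00000018408, chromosome 3, 149517235 to 149736714), the gene of TAZ, had 2014, 1456 and 2885 counts in EW8 at 0 h against 2758, 3215 and 3160 at 48 h. In TC71 the counts were 1517, 1170 and 1334 at 0 h against 1840, 1959 and 2435 at 48 h. After scaling, every library at 48 h exceeded every library at 0 h in both lines. The level rose from 86.5 ± 2.71 to 154 ± 7.28 CPM in EW8 (SD, n = 3 libraries each), a log2 fold of 0.83 ± 0.05 (SE, adjusted p = 1.99e-17), and from 56.4 ± 1.10 to 72.9 ± 2.54 CPM in TC71, a log2 fold of 0.37 ± 0.05 (SE, adjusted p = 1.22e-07). Both values are below the fold threshold.

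The balance of WWTR1 to YAP1 was also computed within each library, as the ratio of counts per exon base, which does not depend on the scaling between libraries. In EW8 the ratio was 1.12, 1.15 and 1.21 at 0 h and 2.33, 2.48 and 2.30 at 48 h. In TC71 it was 0.890, 0.910 and 0.926 at 0 h and 1.13, 1.19 and 1.15 at 48 h. All libraries at 48 h lay above all libraries at 0 h in both lines, with a change of 1.03 in EW8 and 0.35 in TC71 on the log2 scale. An exact permutation test (two-sided) gave p = 0.1 in each line, which is the smallest that 3 libraries against 3 allow, and 0.12 after Benjamini-Hochberg adjustment over 6 such ratios.

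CCN1 (ENSG00000142871, chromosome 1, 85580761 to 85584589) encodes CYR61, a secreted matricellular protein that binds integrins. It had 159, 113 and 199 counts in EW8 at 0 h against 734, 826 and 822 at 48 h. The TC71 libraries held 170, 128 and 139 counts at 0 h against 458, 452 and 571 at 48 h. The lines began at a like level, with 6.50 ± 0.448 CPM in EW8 and 6.12 ± 0.321 CPM in TC71 (SD, n = 3 libraries each), and reached 40.2 ± 1.19 and 17.3 ± 0.420 CPM. The log2 fold was 2.64 ± 0.08 in EW8 (SE, adjusted p = 3.30e-25) and 1.50 ± 0.08 in TC71 (SE, adjusted p = 2.07e-16). No library at 48 h overlapped those at 0 h.

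CCN2 (ENSG00000118523, chromosome 6, 131948176 to 131951372), the gene of connective tissue growth factor, had the largest fold estimate of the members in each line. In EW8 it rose from 40, 16 and 48 counts to 375, 428 and 468. In TC71 it rose from 24, 16 and 14 counts to 69, 62 and 76. Libraries at 0 h and 48 h did not overlap in either line, and the lowest EW8 library at 48 h exceeded every TC71 library. The level went from 1.38 ± 0.424 to 21.4 ± 1.48 CPM in EW8 (SD, n = 3 libraries each), a log2 fold of 3.91 ± 0.13 (SE, adjusted p = 3.05e-23), which ranked 124 of the 16515 genes tested. In TC71 it went from 0.753 ± 0.160 to 2.43 ± 0.176 CPM, a log2 fold of 1.68 ± 0.21 (SE, adjusted p = 7.78e-08), which ranked 202. The low counts at 0 h widen the intervals, which ran from 3.64 to 4.19 in EW8 and from 1.24 to 2.11 in TC71 (95% confidence). In TC71 this interval held that of CCN1 (1.33 to 1.67), so that CCN2 and CCN1 are not ranked there beyond their estimates.

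The ratio of CCN2 to CCN1 per exon base was 0.398, 0.224 and 0.382 in EW8 at 0 h and 0.808, 0.820 and 0.901 at 48 h. It was 0.223, 0.198 and 0.159 in TC71 at 0 h and 0.238, 0.217 and 0.211 at 48 h. The EW8 groups did not overlap (exact permutation p = 0.1, two-sided, adjusted 0.12), and the TC71 groups did (exact permutation p = 0.3, adjusted 0.3).

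**Figure D3:**
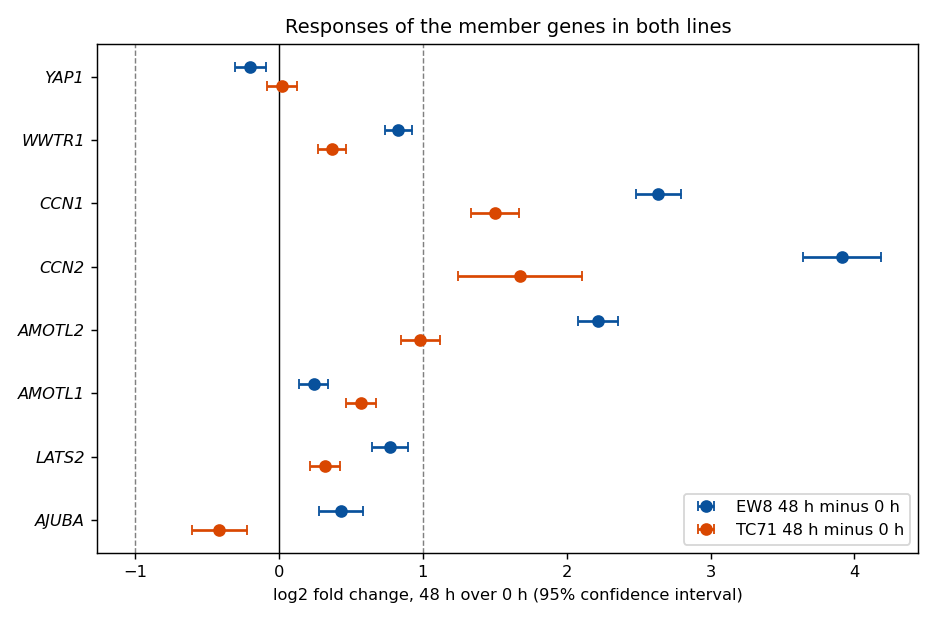
Log2 fold change of 48 h over 0 h (x axis) with its 95% confidence interval for 8 member genes in EW8 (blue) and TC71 (orange); dashed lines mark a 2-fold change. CCN1, CCN2 and AMOTL2 lie beyond 2-fold in EW8, CCN1 and CCN2 in TC71, and AJUBA lies on opposite sides of 0 in the lines. AXL is left out, as its EW8 counts are too low for a fold.

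Of the feedback inhibitors and scaffolds, AMOTL2 (ENSG00000114019, chromosome 3, 134355347 to 134375479), an angiomotin family protein that retains YAP1 and TAZ at junctions, moved most. Its counts in EW8 were 302, 237 and 393 at 0 h against 1134, 1140 and 1265 at 48 h. In TC71 they were 462, 314 and 408 at 0 h against 860, 821 and 1117 at 48 h. Groups did not overlap after scaling in either line. AMOTL2 rose from 12.9 ± 0.835 to 59.8 ± 2.42 CPM in EW8 (SD, n = 3 libraries each), a log2 fold of 2.22 ± 0.07 (SE, adjusted p = 1.13e-24). In TC71 it rose from 16.5 ± 0.965 to 32.7 ± 1.97 CPM, a log2 fold of 0.98 ± 0.07 (SE, adjusted p = 5.24e-14), just under the fold threshold. It passed that threshold with 1.03 under total counts alone, 1.02 without TC71 0 h replicate 1 and 1.02 without TC71 48 h replicate 2.

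AMOTL1 (ENSG00000166025, chromosome 11, 94706431 to 94876748), its paralog, had 1895, 1604 and 2822 counts in EW8 at 0 h against 1859, 2198 and 2027 at 48 h. In TC71 the counts were 1592, 1258 and 1363 at 0 h against 2222, 2393 and 2882 at 48 h. Scaled libraries at 48 h were above those at 0 h in both lines, by a narrow margin in EW8. The log2 fold was 0.24 ± 0.05 in EW8 (SE, adjusted p = 7.81e-05) and 0.57 ± 0.05 in TC71 (SE, adjusted p = 5.40e-11), both under the fold threshold. The ratio of AMOTL2 to AMOTL1 per exon base was 0.247, 0.229 and 0.216 in EW8 at 0 h and 0.944, 0.803 and 0.966 at 48 h. It was 0.449, 0.386 and 0.463 in TC71 at 0 h and 0.599, 0.531 and 0.600 at 48 h. The ratio moved by 1.97 on the log2 scale in EW8 and by 0.42 in TC71 (exact permutation p = 0.1 in each line, two-sided, adjusted 0.12).

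LATS2 (ENSG00000150457, chromosome 13, 20973036 to 21061586), the kinase that phosphorylates YAP1 and TAZ, had 466, 325 and 605 counts in EW8 at 0 h against 620, 648 and 667 at 48 h. The TC71 libraries held 1272, 958 and 1137 counts at 0 h against 1522, 1536 and 1971 at 48 h. Libraries at 48 h were higher in both lines without overlap, and every EW8 library stayed below every TC71 library. The level rose from 19.2 ± 1.09 to 32.7 ± 0.244 CPM in EW8 (SD, n = 3 libraries each) and from 47.1 ± 0.215 to 58.8 ± 1.92 CPM in TC71. The log2 fold was 0.77 ± 0.06 (SE, adjusted p = 2.42e-13) and 0.32 ± 0.05 (SE, adjusted p = 4.57e-06), below the fold threshold in each line.

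AJUBA (ENSG00000129474, chromosome 14, 22971177 to 22982551), a LIM protein that binds and inhibits LATS kinases, moved in opposite directions. It had 475, 395 and 702 counts in EW8 at 0 h against 575, 595 and 551 at 48 h, which gave 21.6 ± 0.928 and 29.1 ± 1.90 CPM (SD, n = 3 libraries each). TC71 had 255, 214 and 246 counts at 0 h against 221, 208 and 212 at 48 h, giving 10.1 ± 0.509 and 7.58 ± 0.952 CPM. All scaled libraries at 48 h lay above those at 0 h in EW8 and below them in TC71. The log2 fold was 0.43 ± 0.07 in EW8 (SE, adjusted p = 4.51e-06) and -0.41 ± 0.09 in TC71 (SE, adjusted p = 6.24e-04). Neither reached a 2-fold change.

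AXL (ENSG00000167601, chromosome 19, 41219223 to 41261766), a receptor tyrosine kinase, had 1 count in each EW8 library at 0 h against 2, 0 and 2 at 48 h, at or under the floor of 3 counts, and no fold is given there. The TC71 libraries held 18, 21 and 22 counts at 0 h against 24, 27 and 35 at 48 h, giving 0.870 ± 0.183 and 1.0 ± 0.0833 CPM (SD, n = 3 libraries each). The TC71 groups overlapped, with a log2 fold change of 0.23 (95% confidence interval -0.30 to 0.76, adjusted p = 0.507). At this depth the counts are compatible with any change within that interval.

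The response was then compared between the lines by an interaction contrast over all 16515 genes. By the same thresholds, a difference was called for 3 members with the larger change in EW8, against 7.28% of all genes, and for 0 in the other direction, against 0.981%. CCN2 rose more in EW8 by 2.24 ± 0.30 on the log2 scale (SE, adjusted p = 1.52e-07), AMOTL2 by 1.24 ± 0.10 (SE, adjusted p = 1.66e-12) and CCN1 by 1.13 ± 0.12 (SE, adjusted p = 1.03e-09). On the adjusted p alone, 6 members had the more positive change in EW8, against 25.7% of all genes, and 2 had it in TC71, against 22.4%. Besides the 3 called genes, the first group held AJUBA (0.84), WWTR1 (0.46) and LATS2 (0.45), each with an adjusted p below that threshold, as edgeR gave it. AMOTL1 differed the other way by -0.33 ± 0.07 (SE, adjusted p = 2.96e-04), as the member that rose more in TC71. The YAP1 responses differed by -0.22 ± 0.08 (SE, adjusted p = 0.0153), and by -0.15 with an adjusted p of 0.100 under total counts alone.

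**Figure D4:**
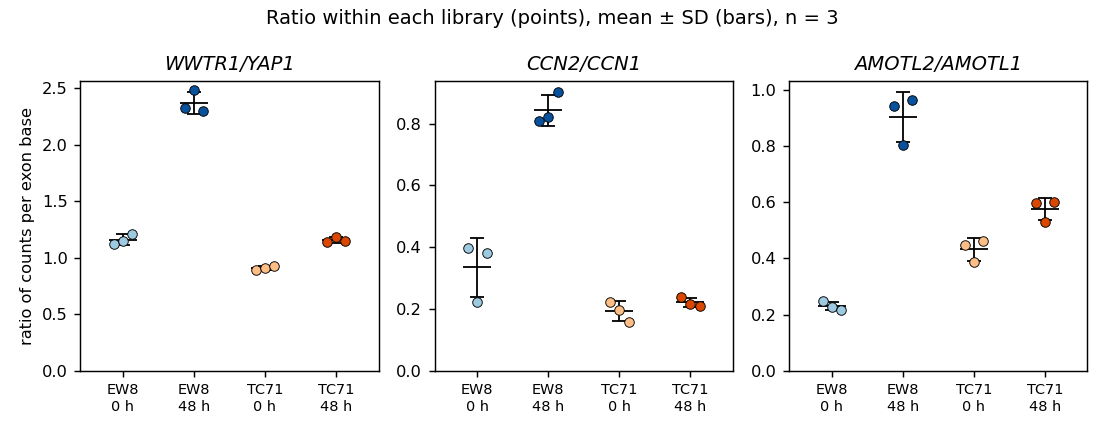
Ratios of counts per exon base within each library (y axes, from 0) for WWTR1 to YAP1, CCN2 to CCN1 and AMOTL2 to AMOTL1, by line and time; points are libraries and bars the mean ± SD (n = 3). All 3 ratios were higher at 48 h than at 0 h in every EW8 library, and the CCN2 to CCN1 ratio overlapped between the TC71 groups.

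The lines also differed in some members in the libraries labelled 0 h. AXL was left out of the counts at 0 h, as it passed the filter on low counts only through TC71, where it is high. Among the other 8 members in the table, 1 was called higher in EW8 than in TC71, against 4.77% of all genes, and 1 was called lower, against 11.9%. On the adjusted p alone, 5 were higher and 2 lower in EW8, against 32.8% and 32.9% of all genes. AJUBA was higher in EW8 by 1.10 ± 0.08 on the log2 scale (SE, adjusted p = 1.04e-13), but by 0.97 and below the fold threshold under total counts alone. LATS2 was lower in EW8, with a log2 difference of -1.30 ± 0.06 (SE, adjusted p = 5.56e-20). AXL is given as a description without a test, with 3 counts over the 3 EW8 libraries against 61 in TC71. Their ratio, per scaled library size, was 20.8 with an exact Poisson interval (95%, counting error only) of 6.79 to 104. CCN2 was higher in EW8 by 0.90 ± 0.24 (SE, adjusted p = 0.00161) and CCN1 by 0.08 (95% confidence interval -0.12 to 0.28, adjusted p = 0.500). The CCN1 value turned to -0.06 under total counts alone, which moved the median of all genes in this comparison by -0.13.

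Levels between genes were compared as CPM per kilobase of exon (GENCODE release 44). In EW8 at 0 h, WWTR1 was the highest at 10.4 ± 0.325 (SD, n = 3 libraries), followed by YAP1 at 8.93 ± 0.444 and AMOTL1 at 8.67 ± 0.450, whose libraries overlapped. AJUBA (3.67) and LATS2 (3.41) came next with overlapping libraries, then AMOTL2 (2.0) and CCN1 (1.76), which also overlapped, and CCN2 (0.589) and AXL (0.00854) were the lowest. At 48 h in EW8, WWTR1 led at 18.5 ± 0.871, CCN1 followed at 10.9 ± 0.322 with libraries that overlapped those of AMOTL1 at 10.2 ± 0.643, and AMOTL2 (9.23) and CCN2 (9.17) overlapped each other and exceeded YAP1 (7.79). LATS2 (5.83), AJUBA (4.95) and AXL (0.0133) stood below them. In TC71 at 0 h, LATS2 was the highest at 8.40 ± 0.0382, then YAP1 (7.43), WWTR1 (6.75), AMOTL1 (5.89), AMOTL2 (2.55), AJUBA (1.71) and CCN1 (1.65), of which only AJUBA and CCN1 overlapped as neighbours, and CCN2 (0.322) and AXL (0.169) were the lowest. At 48 h in TC71, LATS2 stayed first at 10.5 ± 0.343, AMOTL1 (8.75) and WWTR1 (8.72) overlapped, YAP1 followed at 7.54, AMOTL2 (5.04) overlapped CCN1 (4.69), and AJUBA (1.29) overlapped CCN2 (1.04), above AXL (0.195). YAP1, among the 3 highest members of both lines at 0 h, thus ranked 6 in EW8 and 4 in TC71 at 48 h.

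The DNA-binding partners and the upstream pathway were described from lists written by hand from general knowledge, with earlier results of these data known. Of 8 TEAD and VGLL genes, 6 were tested, and 0 were called in either direction in EW8 or TC71, where 13.9% and 3.26% of all genes were called higher and 3.35% and 0.854% lower. On the adjusted p alone, EW8 had 3 that rose and 2 that fell, and TC71 had 1 of each, beside 37.0% and 31.6% of all genes in EW8 and 22.9% and 19.2% in TC71. TEAD1 had 2942, 2153 and 3878 counts in EW8 at 0 h against 2308, 2692 and 2714 at 48 h, with a log2 fold change of 0.08 (adjusted p = 0.147), and 0.06 in TC71 (adjusted p = 0.324). TEAD2 fell by 0.23 on the log2 scale in EW8 (adjusted p = 5.89e-04), and its value in TC71 was -0.24 (adjusted p = 1.62e-04). TEAD3 rose by 0.24 in EW8 (adjusted p = 0.0247), with 0.06 in TC71 (adjusted p = 0.629). TEAD4 fell by 0.47 in EW8 (adjusted p = 3.24e-06), with 0.09 in TC71 (adjusted p = 0.359).

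Of 21 genes around the Hippo kinase core, 20 were tested, and 0 were called in EW8, where 13.9% of all genes were called higher and 3.35% lower, and 1 was called lower in TC71, against 0.854% of all genes. This gene was WWC2, a paralog of the scaffold KIBRA, with 15, 12 and 14 counts in TC71 at 0 h against 9, 7 and 6 at 48 h, a log2 fold of -1.14 ± 0.34 (SE, adjusted p = 0.00719), but -0.91 with an adjusted p of 0.0624, past neither threshold, without TC71 48 h replicate 3. In EW8 WWC2 moved the other way by 0.44 (adjusted p = 7.91e-05). The list had a median of -0.02 on the log2 scale in EW8, and of -0.10 in TC71, beside 0.03 and 0.00 for all genes. Of 23 junction and polarity genes, 20 were tested, 3 were called higher in EW8 and 0 in TC71, and 0 were called lower in either line. As 3 of 20 is near the 13.9% of all genes called higher in EW8, the count is no result about the list, and the 3 genes are named by the rule for named genes. In EW8 RASSF1, which encodes a scaffold that binds the Hippo kinases, rose from 782, 649 and 987 counts to 3161, 3447 and 3688, a log2 fold of 2.37 ± 0.06 (SE, adjusted p = 1.55e-23). TC71 showed 0.92 (adjusted p = 5.89e-13), and the responses differed by 1.46 (adjusted p = 7.24e-14). The other two were WTIP, an AJUBA family LIM protein, with 1.95 in EW8 and 0.92 in TC71, and DCHS2, a protocadherin, with 1.11 and 0.38.

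**Figure D5:**
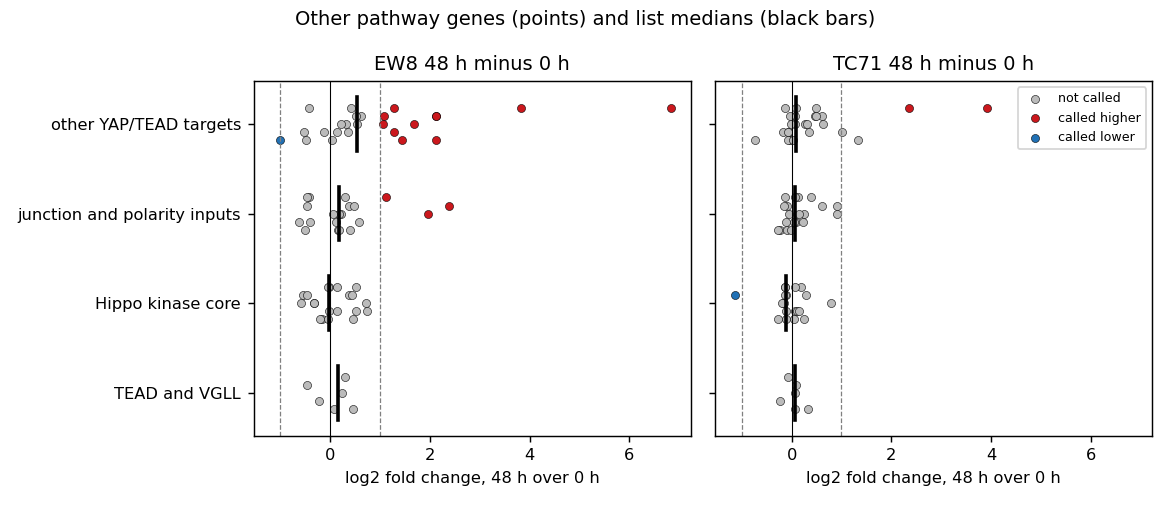
Log2 fold change of 48 h over 0 h (x axis) in EW8 and TC71 for the tested genes of 4 pathway lists (points, with called genes in red or blue) and the median of each list (black bars); dashed lines mark a 2-fold change. In the list of other YAP/TEAD targets 11 of 25 genes were called higher in EW8 and 2 in TC71, and 0 of 6 TEAD and VGLL genes were called, beside 13.9% and 3.26% of all genes called higher in EW8 and TC71.

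Of 32 further genes known as YAP/TEAD targets, 25 were tested. In EW8, 11 were called higher and 1 lower, against 13.9% and 3.35% of all genes, and in TC71 2 were called higher and 0 lower, against 3.26% and 0.854%, with median log2 values of 0.53 and 0.10, beside 0.03 and 0.00 for all genes. The read-out of these genes is shared with other pathways, as several are also targets of AP-1, TGF-beta or p53. TNFRSF12A, the receptor of TWEAK, rose by 3.83 ± 0.07 in EW8 (SE, adjusted p = 4.30e-30) and by 2.36 ± 0.09 in TC71 (SE, adjusted p = 1.06e-20). GADD45A, a stress gene, rose by 1.69 in EW8 (adjusted p = 7.19e-18), with 0.62 in TC71 (adjusted p = 6.54e-08). FJX1, the relative of a fly gene of planar polarity, named after its value was seen, was the gene called lower in EW8, at -1.02 on the log2 scale (adjusted p = 6.66e-11). It lost the call with -0.89 under total counts alone and with -0.99 without EW8 48 h replicate 3, and its value in TC71 was -0.73 (adjusted p = 2.87e-08).

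Several members share exon sequence with other annotated genes, and the strand setting of the authors' counting is not given in the sources used here. WWTR1 shares 756 exon bases with WWTR1-AS1 on the opposite strand, which had 1 to 24 counts per library. AMOTL2 shares 187 bases with the pseudogene RPL39P5 on its own strand, which had 1 to 13 counts. YAP1 (with its longer antisense partner), AMOTL1, CCN2 and AXL share 628, 496, 278 and 67 bases with antisense transcripts that have no row in the table used here, and AJUBA shares 50 bases with a transcript on its own strand. CCN1 and LATS2 share none.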

How the data were processed

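RNA of EW8 and TC71 cells was sequenced in 12 libraries of a stranded poly(A) protocol. Per the labels, the authors used FastQC for read quality and STAR for mapping, with hg38 as genome, and they deposited raw counts per gene, without normalization. The counting tool and its annotation are not given in the sources used here. No gene of the table had fewer than 21 counts in all. Columns were matched to samples by title, and groups were taken from the titles.

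Counts were tested with edgeR 4.0.16 (R 4.3.3), after filterByExpr over 4 groups (minimum count 10, minimum total 15) and TMM scaling, in a robust quasi-likelihood fit of all 12 libraries without a replicate block. P-values were adjusted by Benjamini-Hochberg over the 16515 genes tested. Standard errors are the log2 fold change over the root of the F statistic. The members and lists were chosen with earlier results of these data known. Named were all members, TEAD1 to TEAD4, up to 3 called genes with the smallest adjusted p for each pathway list and line, and the 3 genes most like CCN1, CCN2 and YAP1. The values of 1 gene that this rule named are not reported here. Gene positions and exon lengths came from GENCODE release 44, which matched 19943 of 20771 identifiers, and promoters from RefSeq. Alternatives were DESeq2 1.42.0 (size factors or Wald test), total counts, other filters, single-line fits, a replicate block, no fold threshold and leaving out each library. Figures were drawn with matplotlib 3.10.9.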

Additional observations from a re-analysis of the deposited data

Results flagged for a closer look

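The responses of 8 member genes differed between EW8 and TC71 at an adjusted p below 0.05 in the interaction contrast of edgeR, 6 with the more positive change in EW8 and 2 in TC71, against 25.7% and 22.4% of all genes. The difference of the log2 fold changes, EW8 minus TC71, was 2.24 for CCN2, 1.24 for AMOTL2, 1.13 for CCN1, 0.84 for AJUBA, 0.46 for WWTR1, 0.45 for LATS2, -0.22 for YAP1 and -0.33 for AMOTL1. AJUBA was the member whose 3 libraries at 48 h lay above those at 0 h in EW8 and below them in TC71. Dixon's test for an outlying library was not run on groups of 3.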

How the results depend on the processing

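The calls of the member genes in each line and in the difference between the lines were the same genes under DESeq2's size factors, the DESeq2 Wald test, both filters on low counts and, for the responses within a line, the fits of single lines. Under total counts alone, AMOTL2 was also called higher in TC71, which left the number within 1.5 times of that reported. Without a fold threshold, 7 members were higher and 1 was lower in EW8, 6 and 1 in TC71, 6 and 2 in the difference, and 5 were higher in EW8 at 0 h. At 0 h, total counts alone left 0 members called higher in EW8, and 10 counts in every library left 1 called lower instead of 2 with AXL counted, as AXL was then not tested. With single libraries left out, the number called higher in EW8 at 0 h ran from 1 to 2. CCN2 joined AJUBA there without EW8 0 h replicate 2 (log2 difference 1.07) and without TC71 0 h replicate 1 (1.07). Near-zero values changed sign: YAP1 in TC71 ran from -0.0067 to 0.0410 with single libraries left out, below 0 without TC71 0 h replicate 3 (-0.0052) and without TC71 48 h replicate 3 (-0.0067), and CCN1 at 0 h went to -0.0556 under total counts alone. With the replicate number as a block, 3 members were called higher in EW8 and 2 in TC71, as without it, and over all genes 2277 instead of 2294 were called higher in EW8 and 507 instead of 539 in TC71. Libraries with the same number did not deviate together (correlations from -0.138 to -0.0147), and no library correlated best with its own number, so the block was given no further weight. WTIP was also called in TC71 without TC71 0 h replicate 2 (1.01). Depth limits AXL in EW8 and widens the intervals of CCN2 and WWC2.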

Other observations

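The genes whose log2 CPM followed CCN1, CCN2 and YAP1 most closely over the 12 libraries were looked up among 11080 genes with a mean of at least 100 counts. The libraries fall into 4 groups, so that this likeness mostly follows the group means, and it is given as a description. Closest to CCN1 were DDIT3, which encodes CHOP and shares exon sequence with another annotated gene, with a likeness of 0.997 (Pearson), ERRFI1, an inhibitor of the EGF receptor (0.996), and CSRP1, a LIM protein of the cytoskeleton (0.996). Their log2 fold changes were 5.18, 2.14 and 0.84 in EW8 and 2.72, 1.16 and 0.45 in TC71. Closest to CCN2 were DUSP16, a phosphatase of JNK and p38 (0.993), SERPINE2, a protease inhibitor (0.992), and BTG3, an antiproliferative factor (0.992), with 2.48, 1.82 and 0.88 in EW8 and 0.95, 0.69 and 0.37 in TC71. For YAP1 they were CCSAP (0.944), TXNDC11 (0.940) and EMB (0.938), with -0.55, -0.27 and -0.66 in EW8 and -0.02, -0.01 and -0.01 in TC71.

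Of the fibroblast or mesenchymal markers, 5 of the 8 tested were called higher in EW8 and 1 in TC71, against 13.9% and 3.26% of all genes, with median log2 fold changes of 1.04 and 0.65 beside 0.03 and 0.00 for all genes. COL1A1, a fibrillar collagen chain, rose from 11.2 ± 1.57 to 38.6 ± 4.50 CPM in EW8 (SD, n = 3 libraries each) and had 20.6 ± 1.47 and 32.5 ± 3.41 CPM in TC71. ACTA2, the smooth muscle actin gene, was called in both lines, with 1.95 ± 0.151 and 8.14 ± 0.895 CPM in EW8 and 4.79 ± 0.288 and 9.93 ± 0.424 CPM in TC71. Both were named after their values were seen.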
